A study of Mus musculus with 17 samples.

Results

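Genes of fat cells and of fat synthesis, 9 in all, were followed in the tibialis anterior muscle of the mouse shin: Adipoq, Cfd, Retn, Plin1, Fabp4, Dgat2, Cidec, Pck1 and Thrsp. The members were every probe set that the platform's probe-to-gene table lists under exactly 1 of these symbols. They came to 13 probe sets of 7 genes, out of 20380 probe sets of 12393 genes listed with 1 symbol. No probe set was listed under Cfd or Plin1 alone, and these genes were not analysed here. Fabp4 had 4 probe sets, Dgat2, Thrsp and Pck1 had 2 each, and Adipoq, Retn and Cidec had 1 each.

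The study hybridised 17 Affymetrix arrays, each labelled as a biological replicate: 6 from normal wild-type mice, 6 from mdx mice and 5 from the fiona line. The mdx mouse carries a mutation in Dmd, the dystrophin gene, and is the mouse model of Duchenne muscular dystrophy. The fiona line has the same mdx background with a transgene that makes utrophin, a relative of dystrophin, at a high level, so the fiona and mdx groups share the dystrophin defect. The labels give male animals of 56 days, with the muscles of both legs pooled for 1 array. The labels do not give the strain of the normal mice or the promoter of the transgene. The comparisons ask how mdx muscle differs from normal muscle, and which of these differences are also seen with high utrophin.

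White fat cells store triglyceride in a droplet and secrete hormones such as adiponectin (Adipoq), resistin (Retn) and complement factor D (Cfd). Fabp4 is a fatty acid carrier of fat cells, capillary endothelium and macrophages, while Plin1 and Cidec coat and enlarge the droplet. Dgat2 makes the last step of triglyceride synthesis, Thrsp is a nuclear protein tied to fat synthesis, and Pck1 supplies glycerol 3-phosphate in fat cells and glucose in liver. Of these, Adipoq and Plin1 are the most restricted to fat cells, whereas Dgat2 and Thrsp are also transcribed in muscle fibres. A dissected muscle holds few fat cells, between fibres and at its surface. In such bulk samples, fewer fat cells and less RNA per fat cell cannot be told apart.

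All levels below are deposited log2 values, on which a step of 1 is a doubling, and levels of different probe sets are not compared with each other. The control level of an array is the median of 15 bacterial control probe sets, taken here to have received no spike. On that reading, a value near the control level carries little signal. The control level lay at 2.64 to 2.87 on normal, 2.65 to 2.75 on mdx and 2.75 to 2.99 on fiona arrays. It was thus 0.20 higher on average on fiona than on mdx arrays. Dmd fell from 6.33 to 6.88 on normal arrays to 3.27 to 3.52 on mdx and 3.23 to 3.53 on fiona arrays on 1 probe set, so the mdx and fiona labels were borne out for Dmd. Utrn was uneven among the fiona arrays. On the 2 Utrn probe sets that lay at or under the control level on all 6 mdx arrays, fiona arrays 1 to 5 read 4.94, 3.04, 3.78, 7.28 and 2.48, and 6.39, 2.68, 3.54, 7.02 and 3.02. Fiona array 5 lay under its control level on the first of these and fiona array 2 on the other, and the third Utrn probe set overlapped between mdx and fiona arrays. Both are called fiona arrays by their labels, and the fiona calls are also given without each of them. The mean of 10 muscle fibre genes was 14.4 to 14.8 on every array, as the labelled tissue has. Of 16 further adipocyte genes, 5 lay at or under the control level on all 17 arrays. Of the 17 arrays, 7 had a female pattern of Xist and the Y-linked Eif2s3y against the male label: 1 normal, 2 mdx and 4 fiona arrays. In addition, mdx array 6 carried both markers, with Xist at 5.40 and Eif2s3y at 8.11, and was counted with the male pattern. The largest component of the spread within groups, computed without the member genes, held 42.6% of it. Its sign split the arrays into set 1, with 3 normal, 3 mdx and 2 fiona arrays, and set 2, with 3 of each group. No label gives a batch.

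Promoter windows of RefSeq, on mouse build GRCm38.p6, were matched for 7 of the 9 genes, among them the 3 below. They are shown because these genes took 3 different courses over the groups, as described next. Each window is the 250 bases before the gene's start, 5′ to 3′ on the gene's own strand, and capitals mark the motif named for it.

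Adipoq: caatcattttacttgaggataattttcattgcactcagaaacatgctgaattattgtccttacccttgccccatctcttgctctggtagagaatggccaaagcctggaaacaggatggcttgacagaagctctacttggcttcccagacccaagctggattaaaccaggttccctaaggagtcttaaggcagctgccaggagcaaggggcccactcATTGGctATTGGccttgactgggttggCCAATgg
Thrsp: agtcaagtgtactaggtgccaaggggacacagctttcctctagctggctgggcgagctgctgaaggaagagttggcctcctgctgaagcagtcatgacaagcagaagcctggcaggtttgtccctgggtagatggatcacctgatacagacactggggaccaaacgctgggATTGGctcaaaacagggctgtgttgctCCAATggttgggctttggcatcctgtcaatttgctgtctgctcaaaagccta
Pck1: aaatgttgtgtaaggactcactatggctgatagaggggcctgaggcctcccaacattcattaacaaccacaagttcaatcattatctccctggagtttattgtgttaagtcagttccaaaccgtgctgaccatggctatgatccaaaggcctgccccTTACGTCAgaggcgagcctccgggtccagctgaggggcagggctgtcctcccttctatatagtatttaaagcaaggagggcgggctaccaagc

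The Adipoq window is chr16:23146286-23146535 on the plus strand and holds 3 CCAAT boxes (CCAAT on either strand). The Thrsp window is chr7:97417551-97417800 on the minus strand and holds 2 of them. A CCAAT box was found in 33.8% of all 32851 windows of this length. The Pck1 window is chr2:173152823-173153072 on the plus strand and holds 1 cAMP element, searched as TNACGTCA on both strands, from 93 to 86 bases before the start, which 2.52% of all windows hold. The CCAAT box and the cAMP element were added to the search after the sequences were seen. A PPAR element, searched as 2 copies of AGGTCA with 1 base between and up to 1 mismatch in each, was found in 1.98% of all windows and in 0 of the 8 windows of the members. A C/EBP motif, TTGCNNAA, was found in 9.56% of windows. Among the members it stood in the Plin1 window and in a Cidec window, but not in the other Cidec window. The TATA box TATAAA and the E-box CACGTG stood in 12.4% and 6.02% of all windows and in none of the members' windows. Such matches describe letters in these windows only.

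The measured genes did not follow 1 course over the 3 groups. Dgat2 was lower in mdx than in normal muscle and higher in fiona than in mdx muscle, and Thrsp was lower in fiona than in mdx muscle. Adipoq had its lowest mean in fiona muscle, with wide scatter in every group. Fabp4 on its brightest probe sets differed little, and Retn and Cidec stayed close to the control level on nearly all arrays. In limma, with p adjusted over all genes, 1 of the 7 genes was called for mdx against normal (adjusted p under 0.05), where 4.66% of all genes were called. For fiona against mdx 3 of 7 were called, where 38.9% of all genes were called, so the members' share was close to the background. For fiona against normal 0 of 7 were called, where 0% of all genes were called, and 2 of 7 members and 2626 of all genes had an unadjusted p under 0.05. Over probe sets, mdx against normal gave 3 calls of 13 (4.05% of all probe sets). Fiona against mdx gave 7 of 13 (40.2%), and fiona against normal gave 0 of 13 (0.00491%). Of the 7 genes, 1 had groups that did not overlap in each comparison: Dgat2 for mdx against normal (4.53% of all genes), Retn for fiona against mdx (32.6%) and Adipoq for fiona against normal (0.839%). The mdx arrays stand in both of the first comparisons, so their differences are not independent. The median difference of the 7 genes was -0.17 in mdx less normal muscle, beside -0.04 over all genes. It was 0.15 in fiona less mdx muscle, beside 0.08, and -0.27 in fiona less normal muscle, beside 0.04.

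**Figure D1:**
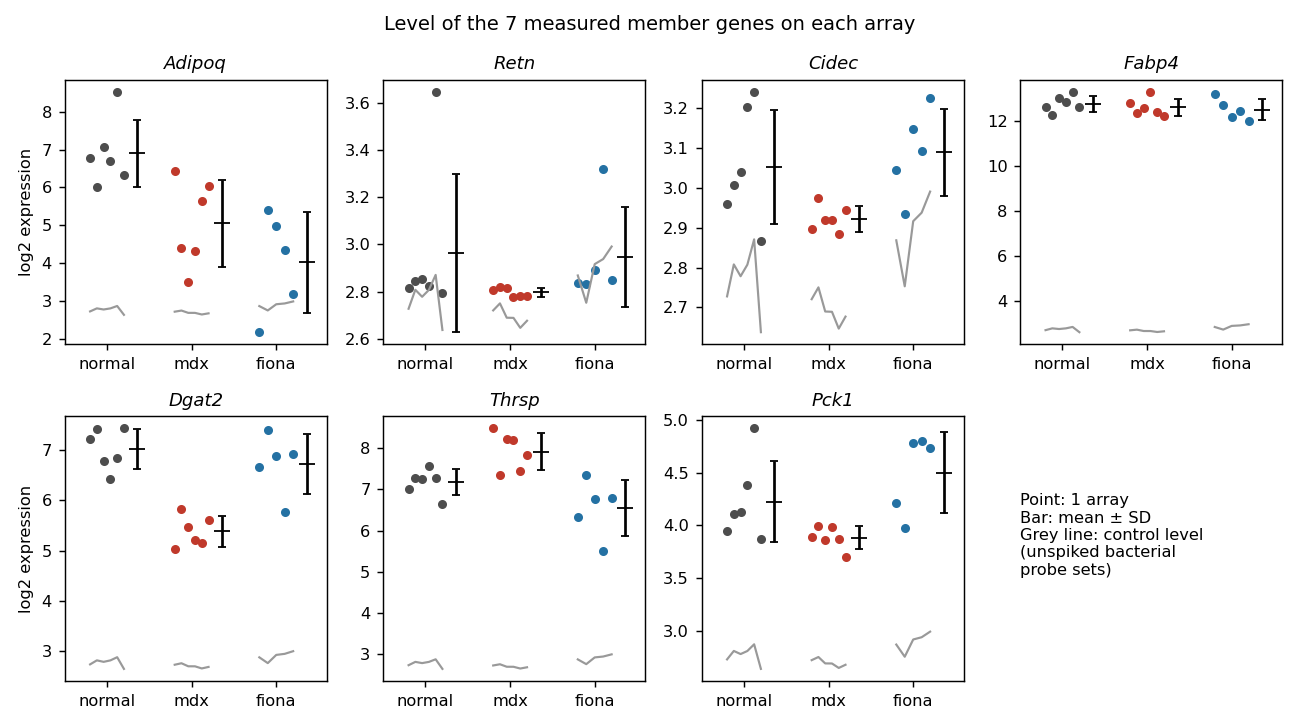
Deposited log2 level of the 7 measured genes on each array, by group, with the group mean and SD (black bars) and the control level of each array (grey line). Adipoq scatters from 2.18 to 8.52, Dgat2 dips in mdx muscle, Thrsp is lowest in fiona muscle, and Retn and Cidec lie near the grey line. The vertical scale differs between panels.

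Adipoq encodes adiponectin, a hormone that fat cells secrete into the blood. It read 6.01 at the lowest, 6.74 at the median and 8.52 at the highest on the normal arrays. On the mdx arrays it read 3.49, 5.02 and 6.44 in the same order. The fiona arrays read 2.18, 5.40, 4.97, 4.35 and 3.19, of which the first lay under its array's control level of 2.87. Of the 6 mdx arrays, 4 lay under all normal arrays, as did all 5 fiona arrays, and mdx and fiona arrays overlapped. The means were 6.90 ± 0.88 (SD, n = 6) in normal, 5.05 ± 1.15 (n = 6) in mdx and 4.02 ± 1.32 (n = 5) in fiona muscle.

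The mean difference between fiona and normal muscle was -2.88 (95% interval -4.27 to -1.49), a 7.34-fold lower level. The two-sided exact permutation test gave its smallest possible p for these groups, 0.00216, with an adjusted p of 0.210 in limma. With values under the control level set to it, the difference was -2.74 (adjusted p = 0.0704). Without fiona array 2, it was -3.22 and was called (adjusted p = 0.0434 in limma), as 974 of all genes then were. Between mdx and normal muscle the difference was -1.85 (95% interval -3.17 to -0.52), with an exact permutation p of 0.0108 and an adjusted p of 0.117. Between fiona and mdx muscle it was -1.03, with an interval from -2.42 to 0.36 that includes 0 (exact permutation p = 0.195, adjusted p = 0.226). Within the array sets, the fiona minus normal difference was -4.16 in set 1 and -1.84 in set 2, and the mdx minus normal difference was -2.94 in set 1 and -0.75 in set 2. None of the Adipoq differences was therefore called in the fit to all arrays.

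Retn encodes resistin, a hormone of mouse fat cells. On the normal arrays it read 2.80 at the lowest, 2.84 at the median and 3.65 at the highest. On the mdx arrays it stayed within 2.78 to 2.82. In fiona muscle the arrays read 2.84, 2.83, 2.89, 3.32 and 2.85. Normal array 5 and fiona array 4 stood farthest above the control level, and 3 of 17 arrays lay at or under it. All fiona arrays lay above all mdx arrays, by an average of 0.15 (exact permutation p = 0.00216), but this was not called in limma (adjusted p = 0.409), and with the control level subtracted from each array the difference was -0.05.

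Cidec encodes a protein that joins small lipid droplets into large ones. It read 2.87 at the lowest, 3.02 at the median and 3.24 at the highest on normal arrays, and 2.88, 2.92 and 2.97 on mdx arrays. The fiona arrays read 3.05, 2.93, 3.15, 3.09 and 3.23. Its fiona minus mdx difference of 0.17 was not called over genes (adjusted p = 0.0506 in limma) and was called over probe sets (adjusted p = 0.0484). It turned to -0.03 with the control level subtracted, and was called over genes without normal array 4, 5 or 6 or fiona array 2. It was also called with the floor at the control level (adjusted p = 0.0469 in limma), the mean of probe sets (0.0472), array set as a block (0.0413), the sex pattern as a covariate (0.0349) and a fit of only the 2 groups (0.0343). Its levels and those of Retn thus held little signal above the control probe sets.

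Fabp4 gave bright values on 2 probe sets and dim ones on the others. The brightest read 12.28 at the lowest, 12.74 at the median and 13.31 at the highest on normal arrays, and 12.25, 12.51 and 13.30 on mdx arrays. Its fiona values were 13.20, 12.72, 12.20, 12.45 and 12.02. The groups overlapped throughout, with differences of -0.16 for mdx against normal (95% interval -0.64 to 0.31) and -0.10 for fiona against mdx (-0.60 to 0.40). A dimmer Fabp4 probe set read 5.25 to 7.03 on normal, 4.53 to 5.20 on mdx and 4.69 to 5.33 on fiona arrays. On it mdx muscle was lower than normal muscle without overlap, by 1.05 on the log2 scale or 2.07-fold (adjusted p = 0.0285 over probe sets in limma, exact permutation p = 0.00216). Fiona minus mdx was 0.21 there (adjusted p = 0.566). The fourth probe set lay at or under the control level on all 17 arrays. In mdx less normal muscle the other bright probe set stood at -0.27 (adjusted p = 0.250 over probe sets) and that dimmest one at -0.32 (adjusted p = 0.196). The 3 Fabp4 probe sets above the control level thus all had a lower mean in mdx muscle, by different amounts, and 1 was called. After removal of the group means, the 3 brighter probe sets varied together over the 17 arrays, with r between 0.647 and 0.778.

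Dgat2 encodes the enzyme that adds the third fatty acid to diacylglycerol. On the normal arrays it read 6.42 at the lowest, 7.04 at the median and 7.44 at the highest. On the mdx arrays it read 5.02, 5.35 and 5.82, all under the lowest normal array. The fiona arrays read 6.66, 7.41, 6.89, 5.77 and 6.93. Of these, 4 of 5 lay above every mdx array and only fiona array 4 lay among them. Fiona array 4 was also the only fiona array of male pattern, and it read highest of them on each Utrn probe set. The part of sex or of Utrn level in its Dgat2 value was not tested. Dgat2 fell by 1.64 on the log2 scale in mdx muscle, a 3.12-fold lower level (SE 0.25, adjusted p = 0.000807 in limma, exact permutation p = 0.00216). It rose by 1.35 in fiona over mdx muscle, or 2.54-fold (SE 0.26, adjusted p = 0.00660, exact permutation p = 0.00433). Between fiona and normal muscle the difference was -0.30, with a 95% interval from -0.85 to 0.26.

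The dimmer Dgat2 probe set gave the same directions and calls, with -1.18 for mdx against normal (adjusted p = 0.0347 over probe sets) and 0.93 for fiona against mdx (adjusted p = 0.0279). In set 1 the Dgat2 differences were -1.40 and 0.93, and in set 2 they were -1.88 and 1.59, each called. Both calls held when each of the 17 arrays was left out in turn. With the Adipoq level of each array as a covariate they were -1.73 (adjusted p = 0.00582) and 1.30 (adjusted p = 0.0261). With the sex pattern as a covariate they were -1.69 (adjusted p = 0.000871 in limma) and 1.21 (adjusted p = 0.0123). No setting tried ended either Dgat2 call.

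**Figure D2:**
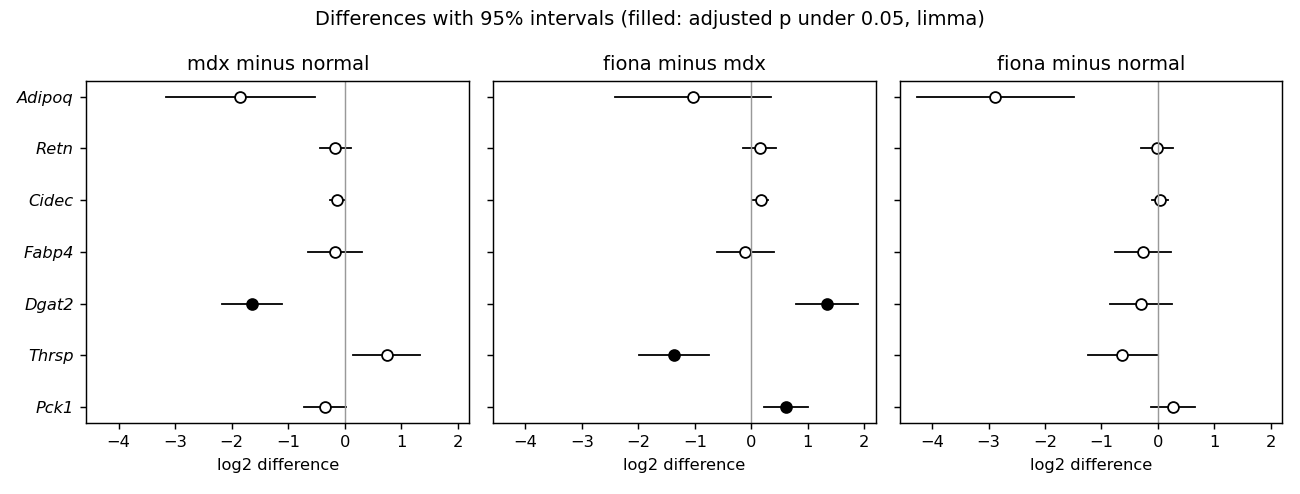
Log2 difference of each measured gene in the 3 comparisons, with its 95% interval from limma; filled points mark an adjusted p under 0.05. Dgat2 lies at -1.64 and then 1.35, Thrsp at 0.74 and then -1.37, and Adipoq at -1.85, -1.03 and -2.88 with the widest intervals.

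Thrsp, also called Spot 14, is a thyroid hormone-responsive gene that follows fat synthesis in liver and fat. On the normal arrays its brighter probe set read 6.65 at the lowest, 7.27 at the median and 7.57 at the highest. On the mdx arrays it read 7.34, 8.01 and 8.48, and 4 of 6 lay above all normal arrays. Fiona arrays gave 6.34, 7.35, 6.77, 5.49 and 6.78, of which 4 lay under every mdx array. Thrsp fell by 1.37 on the log2 scale in fiona below mdx muscle, or 2.59-fold (SE 0.29, adjusted p = 0.0115 in limma, exact permutation p = 0.00433). Its mdx minus normal difference was 0.74 (95% interval 0.16 to 1.33), with an exact permutation p of 0.0130 and an adjusted p of 0.164. Fiona minus normal was -0.63 (95% interval -1.25 to -0.01, adjusted p = 0.232).

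The other Thrsp probe set separated mdx from normal arrays, at 7.33 to 8.12 against 6.60 to 7.28, but was not called either (0.75, adjusted p = 0.163 over probe sets). For fiona against mdx it was called lower (-1.11, adjusted p = 0.0130). The fiona minus mdx difference of the brighter probe set was -2.04 in set 1, where it was called, and -0.92 in set 2, where it was not (adjusted p = 0.244). Leaving out any 1 array kept the call. With the sex pattern as a covariate the difference was -1.59 (adjusted p = 0.00556 in limma). Fiona array 4, the only male-pattern fiona array, read lowest of the fiona arrays, at 5.49. Between mdx and fiona muscle, Thrsp and Dgat2 thus differed in opposite directions.

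Pck1 encodes the enzyme that turns oxaloacetate into phosphoenolpyruvate. It read 3.87 at the lowest, 4.12 at the median and 4.92 at the highest on normal arrays, and 3.70, 3.88 and 4.00 on mdx arrays. The fiona arrays read 4.21, 3.97, 4.78, 4.80 and 4.73, of which 4 lay above every mdx array. Pck1 rose by 0.62 in fiona over mdx muscle, or 1.53-fold (SE 0.18, adjusted p = 0.0195 in limma, exact permutation p = 0.00649). The dimmer probe set was also called higher, by 0.33 (adjusted p = 0.0145 over probe sets). With the control level, which was itself 0.20 higher on fiona arrays, subtracted from each array, the difference was 0.42 (adjusted p = 0.0447). It was 0.60 in set 1 and 0.63 in set 2, neither called. Leaving out fiona array 3 or 5 ended the call, with adjusted p of 0.0505 and 0.0513 in limma. For mdx against normal it was -0.34 (95% interval -0.72 to 0.03), and for fiona against normal 0.27 (-0.12 to 0.66).

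The fiona calls were recomputed without the fiona arrays that were lowest in Utrn. Without fiona array 2, Dgat2 differed from mdx muscle by 1.18 (adjusted p = 0.00372 in limma), Thrsp by -1.57 (adjusted p = 0.00218) and Pck1 by 0.75 (adjusted p = 0.00533). Without fiona array 5 the differences were 1.30 for Dgat2 (adjusted p = 0.0222), -1.43 for Thrsp (adjusted p = 0.0239) and 0.56 for Pck1, the last no longer called. Adipoq stood at -1.38 and -0.82 against mdx muscle in these fits, neither called. Without mdx array 6, which carried both sex markers, Dgat2 was -1.69 against normal muscle (adjusted p = 0.00177).

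Whether the members varied together from array to array, as a shared measure of fat in the sample would, was examined after removal of the group means. Adipoq varied far more than most genes. Its SD within groups was 1.12, larger than that of 99.2% of all genes, whose median was 0.222, and of 97.8% of the 500 genes nearest to it in level. Its highest array stood 5.73-fold above its lowest in normal, 7.69-fold in mdx and 9.35-fold in fiona muscle, the last to a value under the control level. The SDs of the other members were 0.11 for Cidec, 0.23 for Retn, 0.31 for Pck1, 0.40 for Fabp4, 0.44 for Dgat2 and 0.50 for Thrsp.

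**Figure D3:**
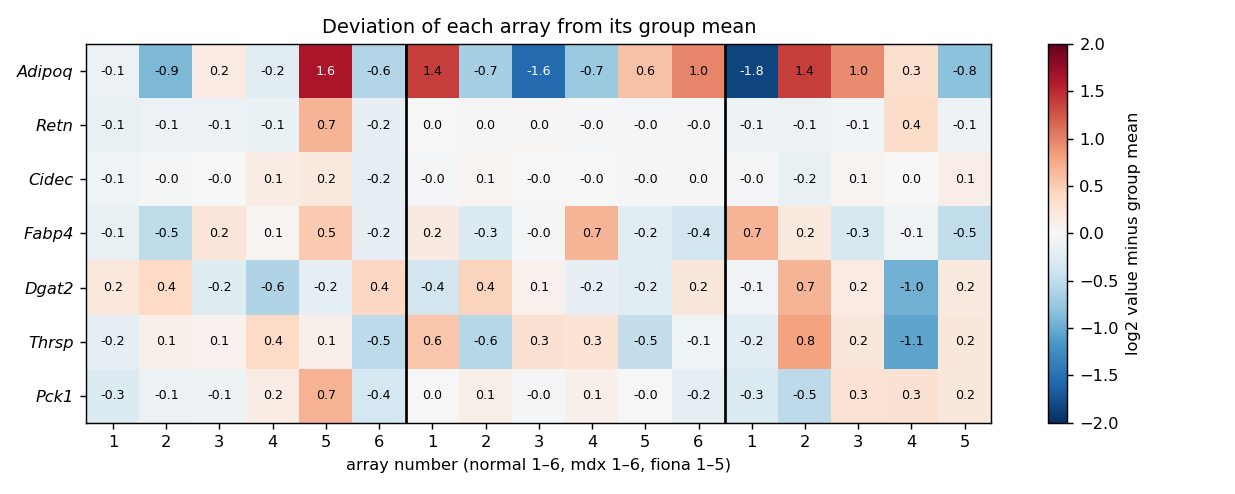
Deviation of each array from the mean of its group for the 7 measured genes, in log2 units (red above, blue below, value printed). Normal array 5 is above its group mean for Adipoq, Retn, Cidec, Fabp4, Thrsp and Pck1, while most other arrays mix colours down the column.

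Over the 17 arrays, 21 pairs of members were compared. Pearson's r ran from -0.51 to 0.856 with a median of 0.108, and 14 pairs were positive. After adjustment over the 21 pairs, 2 passed, and neither held Adipoq. Cidec and Pck1 varied together (r = 0.856, rho = 0.855, permutation p = 0.00023 and 0.00124, adjusted 0.00483 and 0.0176), and r was 0.781 without the 2 arrays farthest from the median of Cidec. It was 0.789 in set 1 (n = 8) and 0.879 in set 2 (n = 9). Over the 6 normal arrays it was 0.92, but over the 6 mdx arrays it was 0.0997. Retn and Pck1 also passed (r = 0.739, rho = 0.615, permutation p = 0.00062 and 0.00168, adjusted 0.00651 and 0.0176), and r was 0.428 without the 2 farthest arrays and 0.47 without normal array 5 alone. In set 1 it was 0.934 and in set 2, which holds neither of the 2 arrays highest in Retn, 0.729. Over the normal arrays it was 0.903 and over the mdx arrays 0.378.

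Both of the genes in the first pair also varied with the control level of the array. Over 7 such relations, r with the control level was 0.877 for Cidec (rho = 0.753, permutation p = 0.0001 and 0.00308, adjusted 0.0007 and 0.0108) and 0.841 for Pck1 (rho = 0.811, permutation p = 0.00021 and 0.00079, adjusted 0.000735 and 0.00553). Without the 2 arrays farthest from the median control level, these were 0.783 and 0.775. In the array sets they were 0.792 and 0.943 for Cidec and 0.936 and 0.890 for Pck1. For Retn, of the second pair, r with the control level was 0.496 (rho = 0.485, permutation p = 0.099 and 0.033, adjusted 0.232 and 0.0778). In the array sets it was 0.880 and 0.655. Adipoq did not follow the control level over all 17 arrays (r = -0.02, rho = -0.02, permutation p = 0.950 and 0.948). In the array sets, however, its r with the control level had opposite signs, 0.460 in set 1 and -0.64 in set 2. These set values were not tested. With the control level subtracted from each array, r of Cidec with Pck1 was 0.571 and that of Retn with Pck1 was 0.600. The part of the control level in the relations of Cidec and Retn with Pck1 was not tested further.

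Adipoq, the reference for fat content here, had weak relations with the other 6 members over all arrays, each taken on its brightest probe set. Pearson's r was 0.416 with Retn, 0.229 with Pck1, 0.206 with Thrsp, 0.108 with Cidec, 0.00383 with Fabp4 and -0.12 with Dgat2. Spearman's rho was 0.279, 0.196, 0.157, 0.152, 0.0907 and -0.19 in the same order. Their permutation p ran from 0.115 to 0.990 for r and from 0.174 to 0.746 for rho, and from 0.503 upward after adjustment. Without the 2 arrays farthest from the median of Adipoq, r ran from -0.18 to 0.169. The other probe sets gave other values. For the dimmer one of Dgat2 r was 0.469, opposite in sign to the brighter one (unadjusted p = 0.0667 in limma). For Fabp4 it was 0.250, 0.369 and 0.325, the last on the probe set at or under the control level on all arrays. For Thrsp it was 0.167 and for Pck1 0.0306. In a limma model with the group means and the Adipoq level, 0 of 6 members and 0% of all genes were associated with Adipoq (smallest adjusted p 0.759), with 312 genes and 0 members at an unadjusted p under 0.05.

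The array sets did not give the same sign for 5 of the 6 relations. Adipoq with Retn had r = 0.726 in set 1 and -0.22 in set 2, with Pck1 0.720 and -0.56, with Thrsp -0.88 and 0.647, and with Fabp4 -0.30 and 0.694. With Cidec it was 0.280 and -0.68, while with Dgat2 it was -0.51 and -0.25. These values describe 8 and 9 arrays of 3 groups, and no test was made of the difference between the sets.

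**Figure D4:**
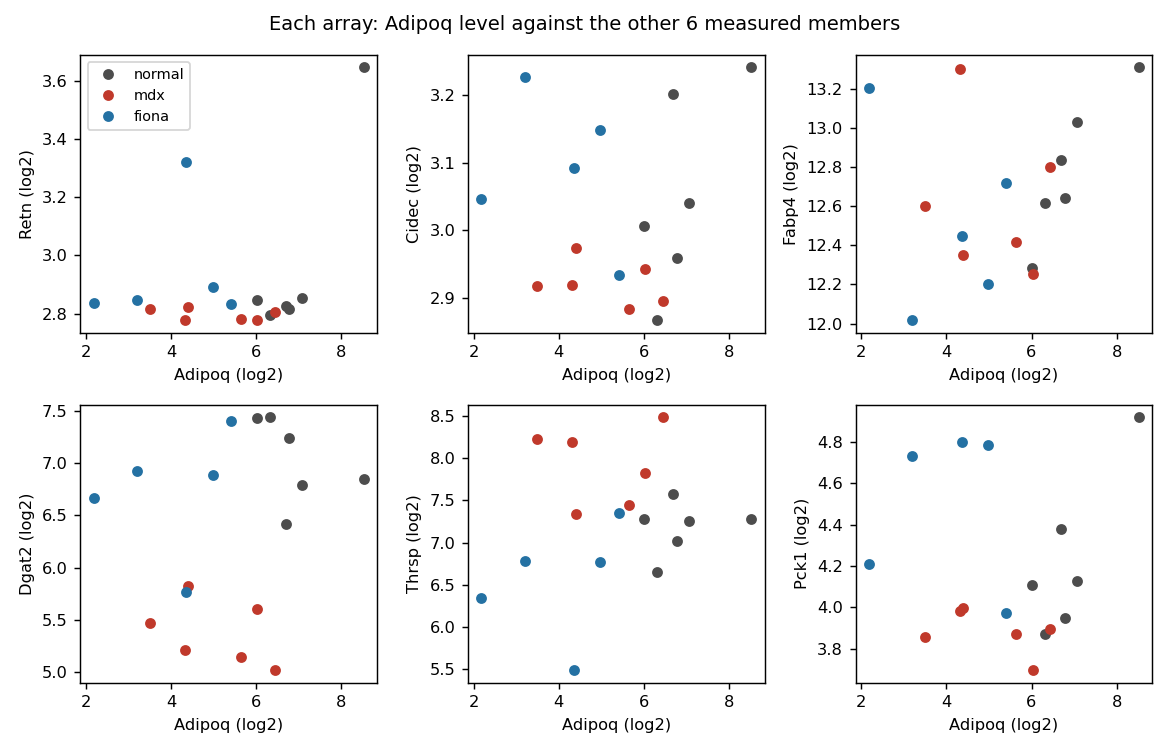
Level of Adipoq on each array (log2, horizontal) against the level of each other measured gene (log2, vertical), coloured by group. The normal array at 8.52 for Adipoq also has the highest Retn, Cidec, Fabp4 and Pck1 of the normal arrays; the mdx and fiona points show no common slope.

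Over the 6 normal arrays, Adipoq went with Fabp4 (r = 0.921, rho = 0.943, exact permutation p = 0.00556 and 0.0167, adjusted 0.0667 and 0.20 over 12 relations). Here r was 0.919 without normal array 5 and 0.796 without the 2 farthest arrays. With Retn r was 0.911 (rho = 0.600, exact permutation p = 0.0653 and 0.242) and with Pck1 0.848 (rho = 0.600, exact permutation p = 0.0597 and 0.242), but without normal array 5 these were 0.20 and 0.22. Over the 6 mdx arrays r lay between -0.46 and 0.04 for all 6 genes, with exact permutation p from 0.390 to 0.926. None of the 12 relations passed after adjustment. The difference between the groups was not tested.

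Normal array 5 held the highest value of its group on 9 of the 13 member probe sets and the highest of all 17 arrays on 8. Its Adipoq level was 8.52, its Retn level 3.65 and its Pck1 level 4.92. The mean level of the 10 muscle fibre genes on that array was 14.54, the lowest of the normal arrays, whose highest was 14.84. Its mean over 16 other adipocyte genes, 4.64, was the highest of the normal arrays, which started at 4.44. A fiona array reached 4.66, and 5 of these 16 genes lay at or under the control level on all arrays. Normal array 5 also had the highest control level of the normal arrays, 2.87. Its mean over the lipid synthesis genes, 6.94, lay below the normal median of 7.01. Its mean over the fatty acid uptake genes, 9.02, was the highest of the normal arrays. The part of this array in each result was examined only by leaving it out.

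By the rule set for it, the 10 other genes with the highest correlation with Adipoq over the 17 arrays after removal of group means are given as a description. They were Ccdc80 (r = 0.832), C1ra (0.758), Trim3 (0.748), Nup93 (0.744), Pmp22 (0.738), Scd1 (0.734), Crip1 (0.728), Grwd1 (0.721), Cers5 (0.721) and Sirpa (0.71). None was called for association with Adipoq. Between groups they took different courses. Ccdc80 was called higher in mdx than in normal muscle, by 1.27 (adjusted p = 0.0314 in limma), and lower in fiona muscle, at -2.01 against mdx (adjusted p = 0.00228). Crip1, Nup93, Cers5 and Sirpa were also called higher in mdx and lower in fiona muscle. C1ra was called lower in fiona than mdx muscle alone (-1.17, adjusted p = 0.00900). Scd1, the desaturase that makes monounsaturated fatty acids, was the only one of the 10 called lower in mdx muscle, and Pmp22 had the sign of Adipoq in all 3 comparisons without a call.

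Other genes of fat cells and of lipid handling were followed by lists. Over all genes, 4.66% were called for mdx against normal and 38.9% for fiona against mdx. These shares stand beside every list count below. Of 16 measured genes among the other adipocyte genes, 0 were called higher and 1 lower for mdx against normal, with a median difference of -0.10 beside -0.04 over all genes. The gene was Plin4, a droplet coat protein of fat cells and muscle, which read 9.40 to 9.81 on normal, 8.25 to 9.17 on mdx and 8.84 to 9.18 on fiona arrays. Plin4 fell by 0.92 in mdx muscle (SE 0.14, adjusted p = 0.00113 in limma), with -1.32 in set 1 and -0.52 in set 2. Its fiona minus mdx difference of 0.30 was not called (adjusted p = 0.123). For fiona against mdx 3 of 16 were called higher and 0 lower, with a median of 0.12 beside 0.08. These were Lgals12 by 0.22, Acvr1c by 0.18 and the leptin gene Lep by 0.14. Acvr1c and Lep lay at or under the control level on all 17 arrays, as did Slc7a10, Rbp4 and Adig. With the control level subtracted, the difference was 0.02 for Lgals12, -0.02 for Acvr1c and -0.05 for Lep.

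Such small rises of dim genes were common in this comparison. Among the 2531 genes that never exceeded the control level, 1735 were called higher in fiona than in mdx muscle and 0 lower, with a median difference of 0.09 over the 2531. Over all genes 3977 were called higher and 841 lower. With arrays centred on their median the split was 927 higher and 762 lower, with quantile normalization 1432 and 571, and with arrays centred on the control level 363 and 3740. Control centring moved the median of all genes from 0.08 to -0.12. Directions of small differences between fiona and mdx muscle therefore depended on the scaling, whereas those of Dgat2, Thrsp and Pck1 kept their sign and their call with control centring.

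Of 15 measured lipid synthesis genes, 0 were called higher and 3 lower in mdx than in normal muscle, with a median of -0.04, equal to that over all genes. Scd1 read 7.89 to 10.6 on normal, 7.21 to 8.35 on mdx and 7.50 to 8.21 on fiona arrays. It fell by 1.53 in mdx muscle (SE 0.34, adjusted p = 0.0160 in limma), with -2.45 in set 1 and -0.62 in set 2, and fiona minus mdx was 0.09 (adjusted p = 0.863). Me1, malic enzyme, which makes NADPH for fatty acid synthesis, read 9.01 to 9.53 on normal, 6.52 to 8.59 on mdx and 8.31 to 9.09 on fiona arrays. Me1 fell by 1.43 in mdx muscle (SE 0.27, adjusted p = 0.00556), without overlap. Lpin1, a phosphatidate phosphatase, fell by 0.82 (adjusted p = 0.0338), a call lost without any 1 of 8 arrays: normal 1, 2, 4, 5 or 6 or mdx 1, 3 or 4.

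For fiona against mdx, 5 of the 15 were called higher and 0 lower, with a median of 0.09 beside 0.08. Me1 rose by 0.78 (adjusted p = 0.0441 in limma), Lpin1 by 0.58 (adjusted p = 0.0482) and Gpam, which starts glycerolipid synthesis, by 0.40 (adjusted p = 0.0232). These calls were not stable. That of Me1 was lost without any 1 of 12 arrays, that of Lpin1 without any 1 of 14, and that of Gpam without fiona array 1. With median-centred arrays 0 of the 15 were called, where 1689 of all 12393 genes were called. Me1 then stood at 0.67 (adjusted p = 0.154). The other called genes were Elovl6, by 0.14, and Acaca, by 0.11, the latter at or under the control level on all arrays. Dgat2 and Me1 thus had the same signs in both comparisons.

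**Figure D5:**
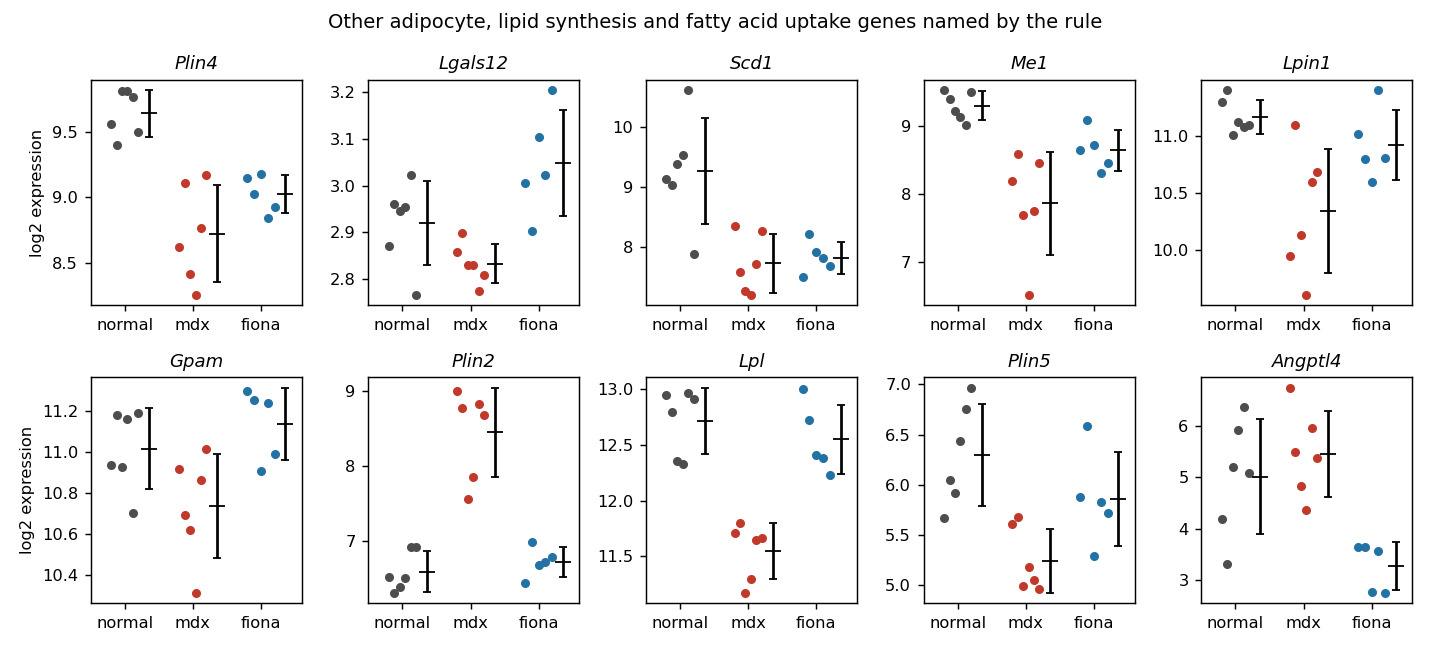
Deposited log2 level on each array of 10 genes named from the lists of other adipocyte, lipid synthesis and fatty acid uptake genes, with mean and SD per group. Lpl, Me1 and Lpin1 dip in mdx muscle, Plin2 peaks there, and the means of Scd1 and Plin4 are lower in mdx and fiona than in normal muscle. The vertical scale differs between panels.

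Genes of fatty acid uptake and of the muscle's own droplets differed in both directions. Of 8 measured, 1 was called higher and 2 lower for mdx against normal, with a median of -0.70 beside -0.04 over all genes. Plin2, the droplet coat protein of most cells and of lipid-laden macrophages, read 6.31 to 6.92 on normal, 7.55 to 8.99 on mdx and 6.44 to 6.98 on fiona arrays. It rose by 1.85 in mdx muscle (adjusted p = 0.000114 in limma) and fell by 1.73 in fiona below mdx muscle (adjusted p = 0.000431). Lpl, the lipase that frees fatty acids from blood lipoproteins, read 12.33 to 12.96 on normal, 11.17 to 11.80 on mdx and at least 12.23 on fiona arrays. It fell by 1.17 in mdx muscle (adjusted p = 0.000335) and rose by 1.01 in fiona over mdx muscle (adjusted p = 0.00228), without overlap in either comparison. Plin5, a droplet protein of oxidative tissues, fell by 1.05 in mdx muscle (adjusted p = 0.0186). For fiona against mdx, 1 of 8 was called higher and 2 lower, with a median of 0.11 beside 0.08 over all genes. The lower ones were Plin2 and Angptl4, an inhibitor of Lpl, which read 4.36 to 6.74 on mdx and 2.75 to 3.64 on fiona arrays and fell by 2.19 (adjusted p = 0.0135), with fiona arrays 3 and 5 no higher than their control level. The Lpl and Plin2 calls held with each array left out.

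Markers of other cells moved with the same comparisons. Of 10 macrophage genes, 9 were called higher in mdx than in normal muscle and 9 were lower in fiona muscle, with 0 in the other direction and medians of 2.96 and -2.95. The mean macrophage level was 4.92 to 6.01 on normal, 8.26 to 9.01 on mdx and 5.18 to 6.04 on fiona arrays, with Lgals3 higher in mdx muscle by 6.03, Tyrobp by 5.31 and Cd68 by 4.44. Cd68 lay at or under the control level on all normal and fiona arrays. The mdx arrays, high in these genes, are those on which Dgat2 was low and Plin2 high. The part of macrophage RNA in these differences was not tested.

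Of 10 progenitor and fibroblast genes, 1 was called higher for mdx against normal, where 4.66% of all genes were called. For fiona against mdx 1 was called higher and 5 lower, where 38.9% of all genes were called. The medians were 0.27 and -0.75, beside -0.04 and 0.08 over all genes. The mean level of the 10 genes was 6.91 to 7.74 on normal, 7.50 to 8.03 on mdx and 6.72 to 7.35 on fiona arrays. Pdgfra, the receptor that marks the cells from which muscle fat can form, fell in fiona below mdx muscle, with a difference of -1.94. The others were Lum at -1.56, Dpt at -0.99, Dcn at -0.93 and Gsn at -0.86, while Dpp4 was higher by 0.19. Lum rose by 1.68 in mdx muscle, a call lost without any 1 of 9 arrays.

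Of 10 muscle fibre genes, 0 were called for mdx against normal and 2 higher for fiona against mdx, Mb by 0.57 and Myh1 by 0.22, with a group range of 14.5 to 14.8 in normal, 14.4 to 14.7 in mdx and 14.6 to 14.8 in fiona muscle. Of 10 endothelial genes 0 were called in either comparison, and their mean level was 6.24 to 7.56 on normal, 6.09 to 6.85 on mdx and 6.35 to 7.27 on fiona arrays. Of 5 tendon genes 0 were called in either. Of 5 brown fat genes 0 were called for mdx against normal and 2 higher for fiona against mdx, Ucp1 by 0.24 and Elovl3 by 0.12. Ucp1 lay at or under the control level on 16 arrays and Elovl3 on all 17. Of 6 epidermis genes 4 were called higher for fiona against mdx, among them Krt5 by 0.37, Krtdap by 0.16 and Krt1 by 0.08, while Krt14, Krt1, Krt15 and Krtdap lay at or under the control level on all arrays. Of 3 erythroid genes Hba-a1 was called higher, by 0.07, and of 3 Schwann cell genes S100b was, by 0.12, both at or under the control level on all arrays. Beside these counts for fiona against mdx, 3977 of all 12393 genes were called higher and 841 lower. In fiona against normal muscle, 0 of all 12393 genes were called, so no gene of the 12 lists could be.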

How the data were processed

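RNA of 17 muscle samples was hybridised to single-colour Affymetrix arrays. The authors' deposited table holds 1 log2 value per probe set and array; per the submitters' processing notes RMA and GCRMA were used, but the sources used here do not say which of them made the table, or in which version. Probe sets were named by the platform annotation: of 22690, 64 were controls, 691 had several symbols and 1555 none, and 20380 had exactly 1. Each gene took the values of its brightest probe set on average. limma 3.58.1 in R 4.3.3 fitted the 3 group means to all 12393 genes, and separately to all 20380 probe sets, with Benjamini-Hochberg adjustment over each whole table; differences are of log2 means. Single members were also compared by two-sided exact permutation tests. Correlations were computed after removal of group means, with 100000 permutations within groups, in Python 3.11.15 with numpy 2.4.6. The scripts were tested on simulated data.

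Array medians lay at 3.52 to 3.82, and precision is limited by how many arrays there are. Each group held arrays of both sex patterns, so no group came from 1 animal alone. Nothing beyond this and the replicate labels says that samples came from separate animals. The p-values therefore measure the spread between these samples, part of which may be technical. The members and gene lists were chosen with earlier results of these data known. Genes were named as members, as the 10 nearest to Adipoq, or as up to 3 called genes of a list with the largest difference in each comparison; Dcn, Gsn, Dpp4, Elovl6, Acaca and the genes named as at or under the control level go beyond this rule and were picked with their values in view. The array sets, the sex pattern and the control level were taken from the data. Alternatives changed the scaling, the filter on dim genes, the choice of probe set, the covariates and the arrays included; those on array sets in the association, male-pattern arrays, control centring and list genes were chosen after seeing the data.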

Additional observations from a re-analysis of the deposited data

Results flagged for a closer look

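In 39 groups of member probe sets, 4 values lay far from the others of their group. Chance gives about 1 in 20 independent groups, or 1.95. The 39 groups share arrays, and some are probe sets of the same gene, so they are not independent. Retn on normal array 5 read 3.65, and Retn on fiona array 4 read 3.32. The second-brightest Fabp4 probe set read 13.11 on normal array 5, where the other normal arrays lay close together. The dimmer Dgat2 probe set read 5.59 on fiona array 2, above all other fiona arrays.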

How the results depend on the processing

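Both Dgat2 calls kept their direction and call under every setting tried. The count of all genes called for fiona against mdx (4818) was 1689 with median-centred arrays, 2003 with quantile normalization, 2099 with the filter on dim genes, 509 with the replicate block, 110 in array set 2 and 3074 with the Adipoq covariate. For mdx against normal (578) it was 1238 with array set as a block, 2565 in set 1, 272 in set 2 and 382 on male-pattern arrays. For fiona against normal (0) it was 1 with the mean of probe sets, 1 with the replicate block, 19 with array set as a block, 29 in set 1, 5 in set 2 and 3 with control centring. Members called for mdx against normal were 2 with the probe set of largest variance, where Fabp4 was -1.05 (adjusted p = 0.0265 in limma), and 2 in set 1; for fiona against mdx they were 1 in set 2. Member probe sets called for fiona against mdx were 4 with median centring, 4 with quantile normalization and 1 with the replicate block. The counts over all genes fell in these settings too, to 1689, 2003 and 509. The shares over all probe sets are not given here, so the fall is not particular to the members. Pairs of members passing were 1 with either scaling. The causes were not tested.

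Signs turned as follows. Cidec, fiona against normal, was -0.0452 with median centring, -0.0445 with quantile normalization, -0.0926 in set 1 and -0.0855 with control centring. With control centring, fiona against mdx was -0.0309 for Cidec, -0.0488 for Retn, -0.0214 for Acvr1c, -0.0529 for Lep, -0.0805 for Elovl3, -0.0422 for Krtdap, -0.1139 for Krt1, -0.1273 for Hba-a1 and -0.0813 for S100b. Krt1 was -0.0196 and Hba-a1 -0.033 with median centring, and Hba-a1 was -0.0208 with quantile normalization. Retn, fiona against normal, was 0.0228 with the floor, 0.0388 in set 2, 0.1004 with the sex pattern and 0.229 with the Adipoq covariate. Fabp4, fiona against mdx, was 0.0627 with the mean of probe sets, 0.2072 with the largest variance and 0.0512 in set 1. The slope on Adipoq was -0.0126 for Fabp4 with quantile normalization and 0.0868 for Dgat2 with the mean of probe sets.

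Leaving out each array in turn gave 441 to 692 genes called for mdx against normal, 3191 (without fiona array 5) to 5342 for fiona against mdx, and 0 to 974 for fiona against normal. Members called were 1 to 1, 2 to 4 and 0 to 1, and member probe sets 1 to 3, 5 to 7 and 0 to 1. Members associated with Adipoq were 0 to 0, and pairs passing 1 to 2. Fabp4, fiona against mdx, ran from -0.2747 to 0.0325, Retn, fiona against normal, from -0.1112 to 0.1191 and Cidec, fiona against normal, from -0.0009 to 0.0751. Slopes on Adipoq ran from -0.0132 to 0.0297 for Cidec, -0.0699 to 0.1208 for Fabp4 and -0.016 to 0.1348 for Pck1.

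Same-numbered arrays correlated, after removal of group means, at 0.0876 to 0.606 between normal and mdx, -0.42 to 0.295 between mdx and fiona and -0.49 to 0.483 between normal and fiona, with 5 of 6 normal and mdx pairs over 0.1. Normal and mdx arrays 3, 4 and 5 fell in set 1 and 1, 2 and 6 in set 2, so in these groups the array sets follow the numbers, while fiona arrays 1 and 4 fell in set 1. Of these 6 pairs, 1 was the closest match of its array, and no label ties the numbers to animals or batches, so the numbers were not taken as pairs. With the replicate block, Pck1, fiona against mdx, was 0.56 (adjusted p = 0.0507 in limma). A repeat of the array-by-array comparison with Plin1 or Cfd in the place of Adipoq was not run, since neither was measured here. Values near the control level carry little signal.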
